A study of Homo sapiens with 12 samples.

Results

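Saos-2 is a human osteosarcoma cell line. Its miRNA profile was compared between day 7 in osteogenic differentiation medium and day 0, with 2 one-colour Agilent arrays for each day. The members are the human miRNAs that stood above the floor of the deposited log2 table, the lowest value of each column, on both arrays of at least 1 of these days. They number 174 of the 851 human miRNAs in the table. Of these, 108 were detected on all 4 arrays, 32 on both day 7 arrays and on neither day 0 array, 2 on both day 0 arrays and on neither day 7 array, 15 on both day 7 arrays and 1 day 0 array, and 17 on both day 0 arrays and 1 day 7 array. The other 8 arrays of the series hold Saos-2 at day 14 and Sa/CD99, clones 22 and 36 of Saos-2 stably transfected with CD99 and selected with neomycin, at days 0, 7 and 14. Parental Saos-2 was not transfected. Cells were grown for 4 days after seeding before the osteogenic medium, with ascorbic acid and beta-glycerophosphate, was added. The authors describe day 0 as basal conditions, and their osteogenic medium held less serum than their routine medium. Time in culture, serum and the added compounds cannot be told apart. Saos-2 is 1 cell line. The labels do not say whether replicates 1 and 2 were separate cultures, so that the spread between them may be technical. The p-values measure only the spread between arrays of the same cell type and day, pooled over the whole series. That spread includes the difference between Sa/CD99 clones 22 and 36 and, for some miRNAs, values at the floor.

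The sample names of the log2 table and of the scanner files did not match. Each of the 12 columns of the log2 table held the same detected miRNAs as exactly 1 scanner array, over 847 of 847 shared names, and all 12 of these scanner arrays were filed under another sample. The values below follow the column labels of the table. When the scanner arrays were taken by the samples under which they were filed, 0 of the 159 miRNAs then detected on all 4 Saos-2 arrays of days 0 and 7 passed limma's adjusted threshold of 0.05, and the number with an unadjusted p under 0.05 was also 0. With floor values included, 1 of 213 was called there, miR-30a*, which was higher at day 7. Every change given below therefore rests on the labels of the table. By these labels the 4 arrays shared 1 slide. The day 0 arrays detected 137 and 158 miRNAs and the day 7 arrays 158 and 229. The summed signal over all human miRNAs was 9466 and 11302 units at day 0 and 25162 and 56491 units at day 7. Without miR-923 it was 8846 and 11061 units at day 0 and 9501 and 22498 units at day 7, so that replicate 1 of day 7 then lay between the day 0 arrays. The part of these differences in the changes was not tested. RNA came from whole cultures, so that fewer cells of a kind and less miRNA per cell cannot be told apart.

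A miRNA is cut from a hairpin precursor and guides silencing complexes to messenger RNAs through its seed, the bases near its 5′ end. The same hairpin can yield a mature miRNA from each arm, and hairpins often lie in clusters that are transcribed together. In bone cells, miRNAs act on the transcription factor RUNX2, on SMAD signalling and on collagen genes, and osteosarcoma cells are held in a proliferative state short of the mature osteoblast.

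Mature sequences of the miRNAs that moved most are shown so that the results can be read against them, 5′ to 3′, from the RefSeq annotation of GRCh38.p14, with the seed (bases 2 to 8) in capitals. Among the miRNAs called higher at day 7, RefSeq had 8 of 10.
miR-1225-5p: gUGGGUACggcccagugggggg
miR-1202: gUGCCAGCugcagugggggag
miR-1268: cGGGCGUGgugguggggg
miR-1275: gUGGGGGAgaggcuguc
miR-494: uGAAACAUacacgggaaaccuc
miR-1305: uUUUCAACucuaaugggagaga
miR-1246: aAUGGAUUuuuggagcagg
miR-1290: uGGAUUUUuggaucaggga
The last pair share a run of 12 bases that is offset by a few positions, so that their seeds differ.

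Some of the leading falls are shown next, without miR-551b and miR-181a-2*. Added are miR-92a of the miR-17 cluster and miR-98 of the let-7 family, with let-7a for comparison because it has the same seed as miR-98.
miR-129*: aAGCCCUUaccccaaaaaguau
miR-484: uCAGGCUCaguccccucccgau
miR-744: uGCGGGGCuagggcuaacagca
miR-210: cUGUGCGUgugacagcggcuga
miR-30a*: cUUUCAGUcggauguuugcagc
miR-29b-1*: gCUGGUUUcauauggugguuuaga
miR-149: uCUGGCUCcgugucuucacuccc
miR-92a: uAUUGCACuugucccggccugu
miR-98: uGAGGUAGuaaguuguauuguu
let-7a: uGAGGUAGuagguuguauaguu

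The arms of the miR-125a hairpin are shown because their differences in the table had opposite signs, and 5 miRNAs are shown from those detected at day 7 and not at day 0.
miR-125a-5p: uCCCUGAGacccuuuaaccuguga
miR-125a-3p: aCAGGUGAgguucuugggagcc
miR-630: aGUAUUCUguaccagggaaggu
miR-663: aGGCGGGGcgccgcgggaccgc
miR-134: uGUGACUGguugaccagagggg
miR-671-5p: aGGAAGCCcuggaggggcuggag
miR-1471: gCCCGCGUguggagccaggugu

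At day 7, 10 miRNAs were higher and 21 were lower than at day 0 among the 108 detected on all 4 arrays, by limma at a Benjamini-Hochberg adjusted p of 0.05. That is 28.7% of the 108. Over all 219 miRNAs tested, which include miRNAs at the floor in one of the groups, 21.5% were called higher, 15.1% lower and 36.5% in either direction. Among the 108, 9.26% were called higher and 19.4% lower. The share among the 108 was therefore below that of all tested for higher calls and above it for lower calls. The median log2 difference of the 108 was -0.99, with 95 values below 0 and 13 above. The groups did not overlap for 93 of the 108 miRNAs, 80 lower and 13 higher at day 7, and all 31 calls were among them. Over all 219 tested the groups did not overlap for 69.9%, 45.2% lower and 24.7% higher. The columns of the authors' table largely share 1 set of values. The median moved with the scaling of the table alone, to -0.50 when centred on its median and to -1.22 when shifted by its 75th percentile. It moved in the scanner data too, where the values also differ from the table. The median difference was -0.30 in the total gene signal of the same arrays scaled by the 75th percentile, 0.00 in the same signal with no scaling and -0.19 in the single spots. A fall of about 1 log2 unit in the table is therefore a typical value, and all 21 lower calls lay below the median of -0.99.

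**Figure D1:**
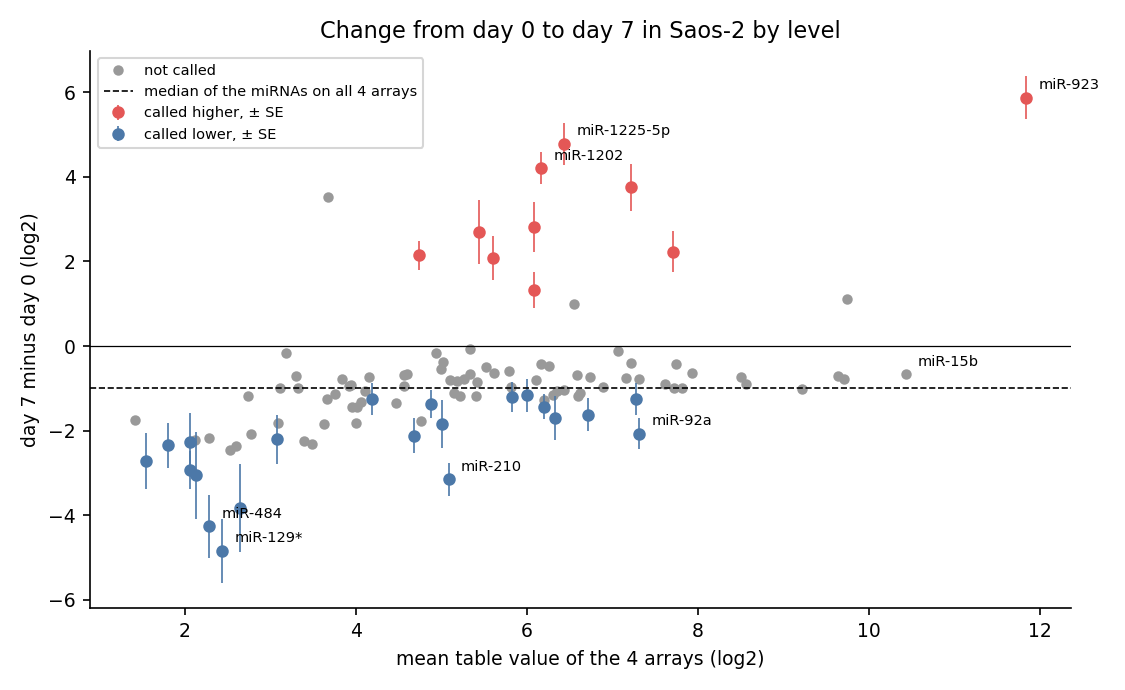
Difference between day 7 and day 0 in Saos-2 (log2) against the mean table value of the 4 arrays (log2) for the 108 miRNAs detected on all 4 arrays. Bars are the standard error from limma, given for the 31 calls only, and the dashed line is the median of -0.99. The 10 higher calls lie between 1.33 and 5.87, with miR-125a-3p (3.53) among them but not called and miR-21 (1.11) just below, and the lower calls of largest size lie at low mean values.

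The largest rise was that of miR-923, a name first given to a miRNA and since withdrawn because it matches ribosomal RNA. Its table value was 9.61 and 8.19 at day 0 and 14.99 and 14.56 at day 7. The difference was 5.87 ± 0.51 (SE, n = 2 per day), a fold of 58.6, with a limma adjusted p of 3.4e-05. The unscaled signal of the scanner was 620 and 241 units at day 0 and 15700 and 34000 units at day 7, which made it the brightest human miRNA name on both day 7 arrays, whereas miR-15b was the brightest on both day 0 arrays.

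miR-1225-5p and miR-1202 followed. miR-1225-5p lies within the span of PKD1 at chr16:2090263-2090284 and miR-1202 lies outside protein-coding genes at chr6:155946809-155946829. miR-1225-5p stood at 4.77 and 3.32 at day 0 and at 8.46 and 9.20 at day 7, a difference of 4.78 ± 0.50 (SE, limma adjusted p = 0.000115). miR-1202 stood at 4.39 and 3.74 and then at 7.99 and 8.55, a difference of 4.20 ± 0.38 (SE, limma adjusted p = 4.1e-05). In both, the lowest day 7 array was more than 3 log2 units above the highest day 0 array.

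miR-1308, a withdrawn name for a fragment of transfer RNA, had values of 5.59 and 5.09 at day 0 and of 8.35 and 9.83 at day 7, a difference of 3.75 ± 0.56. miR-1268 had 5.46 and 3.90 at day 0 and 7.05 and 7.93 at day 7, a difference of 2.81 ± 0.59. miR-494 comes from the large imprinted miRNA cluster of chromosome 14, at chr14:101029681-101029702, and had 5.29 and 2.88 at day 0 and 6.11 and 7.47 at day 7, a difference of 2.70 ± 0.76. The day 0 arrays of miR-494 lay far apart, and only 0.82 log2 units separated the nearest arrays of the groups.

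The last 4 rises were smaller. miR-1246, related in sequence to a spliceosomal small nuclear RNA, rose by 2.23 ± 0.49 and miR-1305, within the span of TENM3 at chr4:182169343-182169364, rose by 2.14 ± 0.34. miR-1290, within the span of ALDH4A1 at chr1:18897078-18897096, rose by 2.08 ± 0.52 and miR-1275, at chr6:34000018-34000034, by 1.33 ± 0.43. miR-1305 had the least scatter of the 4, with 3.83 and 3.52 at day 0 and 5.70 and 5.93 at day 7. All 10 higher calls were also called higher in the unscaled signal of the scanner, but miR-1246 (1.39, limma adjusted p = 0.0732), miR-1290 (0.44, 0.195) and miR-1275 (0.26, 0.274) were not called in the spots, and miR-1275 (1.10, 0.108) was not called with the table shifted by its 75th percentile.

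**Figure D2:**
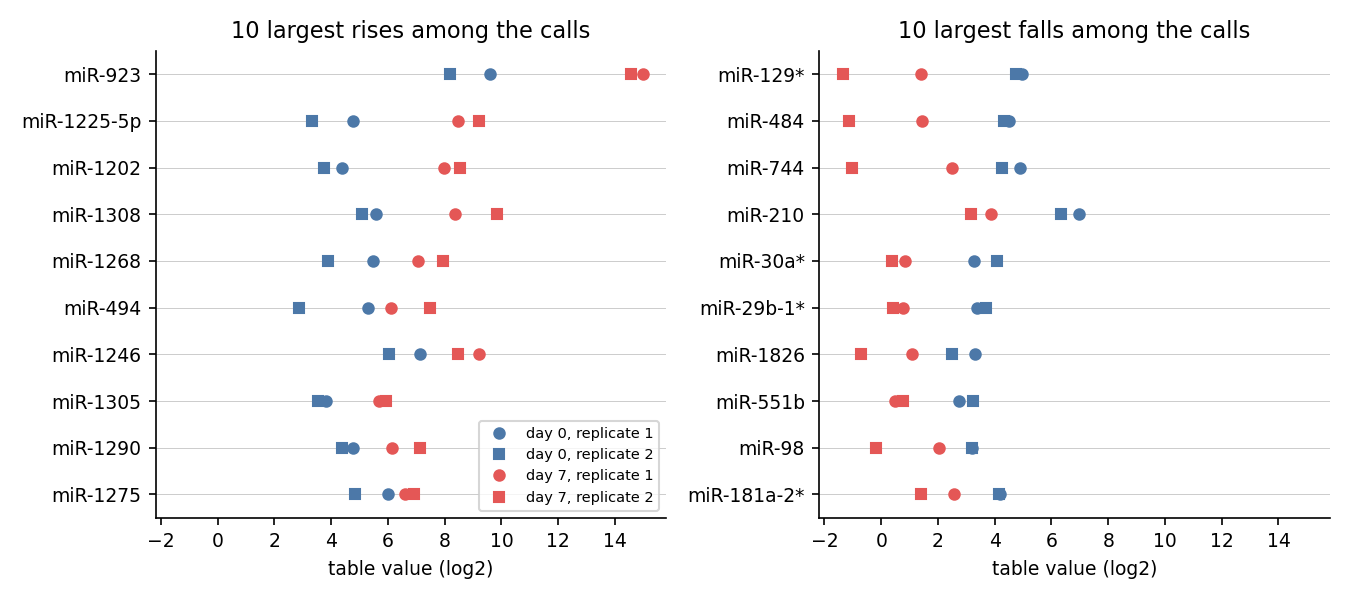
Table values (log2) on each Saos-2 array for the 10 largest rises and the 10 largest falls among the called miRNAs. Blue stands for day 0 and red for day 7, circles for replicate 1 and squares for replicate 2. In no row do the days overlap, and the day 7 replicates of miR-129*, miR-484, miR-744 and miR-98 lie more than 2 log2 units from each other.

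The largest falls were of miRNAs with modest levels at day 0. miR-129* (now miR-129-1-3p, chr7:128207920-128207941) had 4.97 and 4.75 at day 0 and 1.39 and -1.36 at day 7, a difference of -4.84 ± 0.75 (limma adjusted p = 0.00128). miR-484 had 4.52 and 4.31 and then 1.44 and -1.13, a difference of -4.26 ± 0.75 (limma adjusted p = 0.00249). miR-744, within the span of MAP2K4 at chr17:12081909-12081930, had 4.89 and 4.24 and then 2.50 and -1.02, a difference of -3.83 ± 1.05 (limma adjusted p = 0.0221). In these 3 the day 7 arrays differed from each other by more than 2 log2 units, and the scanner signal at day 7 was only 3.16 to 5.31 units, against 11.7 to 18.5 units at day 0. In the unscaled signal the differences were -2.30, -1.71 and -1.60.

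miR-210, the miRNA most closely tied to low oxygen through HIF, fell from a higher level and with less scatter. It stood at 6.97 and 6.35 at day 0 and at 3.86 and 3.16 at day 7, a difference of -3.15 ± 0.39 (SE, limma adjusted p = 0.000322). Its unscaled signal was 72.0 and 65.3 units at day 0 and 11.5 and 19.4 units at day 7. The gene lies at chr11:568112-568133, outside protein-coding genes.

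Starred (passenger) arms accounted for 6 of the 108 miRNAs, and 4 of these 6 were called lower, miR-129*, miR-30a*, miR-29b-1* and miR-181a-2*, beside 19.4% of the 108. The others, miR-191* (-2.37, limma adjusted p = 0.0722) and miR-193b* (-1.74, limma adjusted p = 0.447), were not called. Starred arms outside the 108 were mixed. miR-150* and miR-135a* were detected on both day 7 arrays and on neither day 0 array. miR-1914* and miR-425* were on both day 7 arrays and 1 day 0 array, and miR-23b* and miR-33b* on both day 0 arrays and 1 day 7 array. With the replicate block miR-30a* was no longer called (limma adjusted p = 0.0776). miR-30a* fell by 3.06 ± 1.02, whereas miR-30a from the same hairpin had a difference of -0.97, close to the median. miR-29b-1* fell by 2.94 ± 0.45 and its cluster partner miR-29a, which targets bone collagens, had -0.48 and no call. miR-181a-2*, within the span of NR6A1 at chr9:124692518-124692539, fell by 2.20 ± 0.58, and miR-181a had -0.80 and no call. With no scaling, the differences in scanner signal were -0.60 for miR-30a*, -0.40 for miR-29b-1* and -0.50 for miR-181a-2*, none of them called. The difference between arms was not tested.

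The other large falls were miR-1826, a withdrawn name that matches ribosomal RNA, with -2.72 ± 0.67, miR-551b with -2.35 ± 0.53 and miR-98 of the let-7 family with -2.27 ± 0.69. With no scaling, these 3 had differences of 0.21, 0.07 and 0.05 in the scanner signal, so that their direction did not hold there. Nor did it hold for miR-551b under cyclic loess (0.21), and the difference of miR-98 in the spots rounded to 0. The remaining 18 lower calls kept a negative difference with no scaling, and 3 of them, miR-129*, miR-484 and miR-210, were called lower there too.

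Among more abundant miRNAs, miR-92a fell clearly. This member of the miR-17 cluster, which promotes proliferation, had 8.35 and 8.35 at day 0 and 6.69 and 5.86 at day 7, a difference of -2.07 ± 0.37 (SE, limma adjusted p = 0.00249), and an unscaled signal of 193 and 242 units and then 78.8 and 116 units. miR-149, within the span of GPC1 at chr2:240456015-240456037, had 5.93 and 5.54 and then 4.10 and 3.14, a difference of -2.12 ± 0.41. miR-221, which restrains the cell cycle inhibitor p27, had 6.85 and 6.97 and then 5.64 and 5.34, a difference of -1.43 ± 0.30. miR-221 was one of the most even of the calls between replicates.

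The 8 calls of the lower list not yet named had differences between -1.84 and -1.16. miR-145, a miRNA of smooth muscle and mesenchymal cells, had -1.84, miR-125b -1.70, miR-331-3p -1.62, miR-99b -1.37, miR-23a -1.25, miR-425 -1.25, miR-193b -1.21 and miR-320b -1.16. Set against the median of the 108, the last 4 lay only 0.26, 0.26, 0.21 and 0.17 log2 units below it. Leaving out single arrays changed the calls. Without day 0 replicate 1 there were 20 calls, 10 of them lower. Without day 0 replicate 2 there were 15, 9 lower, and without day 7 replicate 2 there were 19, 12 lower, whereas without day 7 replicate 1 there were 53, 42 of them lower. For 20 of the 21 lower calls the value on day 7 replicate 2 was the lowest of the 4. A core of 13 of the 31 calls passed whichever Saos-2 array was left out: miR-923, miR-1225-5p, miR-1202, miR-1308, miR-1268 and miR-1305 among the rises, and miR-129*, miR-484, miR-210, miR-29b-1*, miR-149, miR-92a and miR-221 among the falls.

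**Figure D3:**
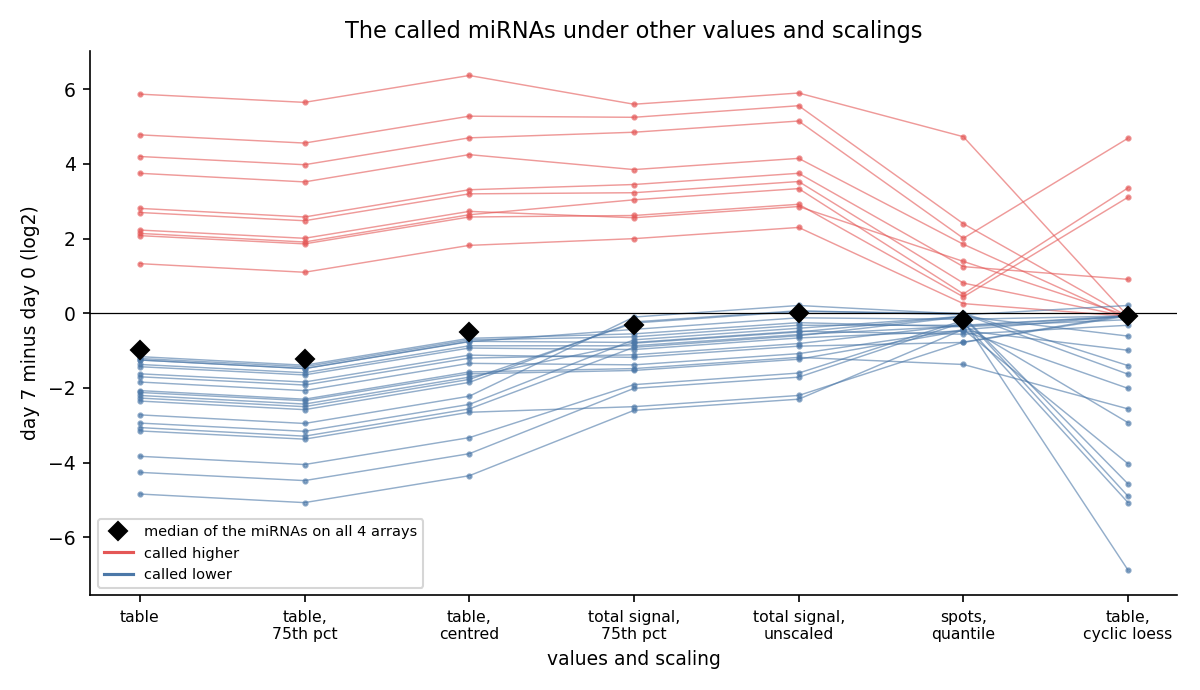
Difference between day 7 and day 0 (log2) for the 10 miRNAs called higher (red) and the 21 called lower (blue) in the table, under 7 combinations of values and scaling, with the median of all miRNAs on all 4 arrays as diamonds. From the table to the unscaled signal most calls shift upward with the median, so that rises such as miR-1305 (2.14 to 3.34) grow and the falls shrink. All rises are smaller in the spots than in the table, and under cyclic loess between the columns the calls run from -6.88 for miR-744 to 4.69 for miR-1202, with several of both kinds close to the median of -0.08.

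The number and the split of the calls differed between values and scalings, which changed together in the scanner data. Beside 10 higher and 21 lower in the table, there were 11 higher and 11 lower with the table centred on its median, 11 higher and 8 lower in the total gene signal scaled by the 75th percentile, 8 higher and 36 lower in the spots, and 0 higher and 4 lower under cyclic loess. Of the 31 calls, 25 were called in the same direction with the table shifted by its 75th percentile, 21 with it centred on the median of the shared miRNAs, 18 in the total gene signal scaled by the 75th percentile and 21 in the spots after quantile normalization. Under cyclic loess, a fit that includes the many miRNAs at the floor, 1 of the 31 was called. The direction was the same in all 5 of these scalings for 24 of the 31, namely 4 of the 10 rises (miR-1202, miR-1268, miR-1290 and miR-1305) and 20 of the 21 falls (not miR-551b). The other 6 rises, miR-923 among them, turned to values between -0.15 and -0.07 under cyclic loess and kept their direction in the other 4.

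A second group was present at day 7 and not detected at day 0. It held 32 miRNAs, of which 24 were higher on replicate 2 than on replicate 1. For these a fold is only a bound, the day 7 mean against the mean of the lowest detected values on the day 0 arrays, 2.0 and 0.75. miR-630, within the span of ARIH1 at chr15:72587277-72587298, had by far the highest level, 8.69 and 9.42, at least 205-fold higher at day 7. Its scanner signal was 274 and 998 units at day 7. No other of the 32 exceeded 6.62 in the table on either day 7 array.

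miR-483-5p, from an intron of the growth factor gene IGF2, followed with 5.79 and 6.47, at least 27-fold higher, and then miR-663 with 5.41 and 6.62, at least 24.9-fold higher. miR-134, from the same chromosome 14 cluster as miR-494, had 4.70 and 5.64, at least 13.9-fold higher, and miR-939 had 4.63 and 5.59, at least 13.3-fold. miR-150* (4.52 and 4.63), miR-1471 (3.62 and 4.89) and miR-671-5p, within the span of CHPF2 (4.00 and 4.46), completed the 8 highest. All 8 were also at the floor on both Sa/CD99 day 0 arrays.

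At the lower end of this group, miR-34a, a target of p53, had 1.49 and -1.06 at day 7, a mean below that of the lowest detected values of the day 0 arrays, so that no fold can be given. Its scanner signal was 3.37 and 5.21 units. miR-298, miR-596 and miR-1229 were likewise too low for a bound. The opposite group held only miR-615-3p, with 2.79 and 1.09 at day 0, and miR-92b, which has the same seed as miR-92a, with 2.05 and 1.36. Their scanner signal at day 0 was 2.83 and 2.24 units and 1.61 and 2.38 units. On day 7 replicate 2, miR-23b* was detected at 1.38 units, so that no fold is given for these either.

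**Figure D4:**
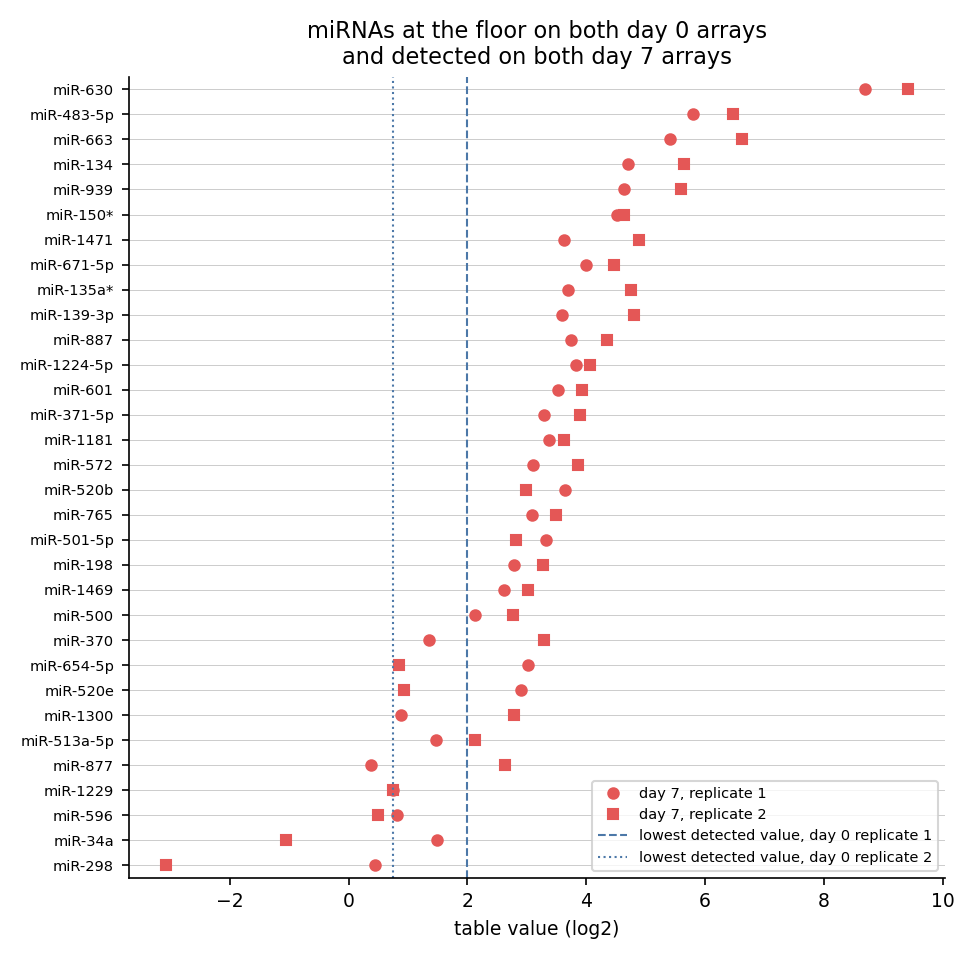
Table values (log2) at day 7 of the 32 miRNAs at the floor on both day 0 arrays, with circles for replicate 1 and squares for replicate 2. The vertical lines are the lowest detected values of the day 0 arrays, 2.0 and 0.75, and miR-630 stands alone at 8.69 and 9.42.

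Of the 15 miRNAs found on both day 7 arrays and on only 1 day 0 array, 5 reached 6.80 or more on both day 7 arrays. miR-1207-5p had 7.72 and 8.35 at day 7 and 4.28 on day 0 replicate 1, miR-575 had 7.26 and 8.19 against 2.94, miR-638 had 7.47 and 7.83 against 3.62, miR-1915 had 6.80 and 7.56 against 3.93, and miR-188-5p had 6.85 and 7.05 against 3.02. All 5 were at the floor on day 0 replicate 2. Of the 17 found on both day 0 arrays and on 1 day 7 array, miR-129-5p, the other main product of the miR-129 genes, was the highest on day 0 replicate 1, with 4.46 there and 4.20 on replicate 2, and -2.50 on day 7 replicate 2. miR-222, the cluster partner of miR-221, had 4.00 and 4.55 at day 0 and -0.12 on day 7 replicate 2.

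Among the 108 miRNAs, the 5 of highest mean level were miR-923, miR-15b, miR-21, let-7a and miR-720. miR-15b, which slows the cell cycle, had 10.54 and 10.98 at day 0 and 10.09 and 10.09 at day 7, a difference of -0.67 ± 0.36 with no call. let-7a had 10.09 and 10.09 and then 9.83 and 8.80, -0.77 ± 0.38, and miR-720, a fragment of transfer RNA, had 9.42 and 10.54 and then 8.96 and 9.61, -0.70 ± 0.53. All 3 lay above the median of -0.99. miR-21, the best known oncogenic miRNA, had 8.96 and 9.42 at day 0 and 9.61 and 10.98 at day 7, a difference of 1.11 ± 0.65 that was not called (limma adjusted p = 0.191).

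Families and clusters mostly had differences near the median. All 9 let-7 members, which favour differentiation, were detected on all 4 arrays, with 1 lower call and a median of -0.89, beside 19.4% called lower and a median of -0.99 for the 108. That call, miR-98, was lost with the replicate block (limma adjusted p = 0.0525). Their differences ran from -2.27 for miR-98 to -0.12 for let-7i, with -1.02 for let-7b, -1.0 for let-7d, -0.89 for let-7e and -0.74 for let-7f. let-7c, with -1.15, missed the threshold narrowly (limma adjusted p = 0.0503). Of the miR-17 cluster and its relatives, 8 of 11 on the array were on all 4 arrays, with 1 lower call, miR-92a, and a median of -0.82. In that list miR-25 had -0.74, miR-93 -0.97, miR-19b -0.43 and miR-20a -0.64. The miR-15/16 family had 3 of 7 on all 4 arrays, no call and a median of -0.67, with -0.58 for miR-16 and -2.23 ± 1.16 for miR-195. The miR-26 family had both members on all 4 arrays, no call and a median of -0.70, and the miR-130 and miR-301 family 2 of 5, no call and a median of -1.29.

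Lists tied to bone formation are given next, beside 19.4% called lower and 9.26% called higher among the 108. The miR-23/27/24 clusters, which act in osteoblast differentiation, had all 5 members on all 4 arrays, with 1 lower call (miR-23a), a median of -1.0 and values of -1.0 for miR-23b, -0.89 for miR-24, -0.65 for miR-27b and -1.85 ± 1.41 for miR-27a. With the replicate block miR-27a was called lower too (limma adjusted p = 0.0451). Of 11 miRNAs known to target RUNX2, 8 were on none of the 4 arrays and 2 on all 4, miR-23a called lower and miR-30c (-1.26) not called. The miR-30 family, which acts on SMAD1 and RUNX2, had 4 of 5 members on all 4 arrays, none called, and a median of -1.02. Of the miR-29 family, miR-29a alone was on all 4 arrays. Of 10 mesenchymal and chondrogenic miRNAs, 7 were on all 4, with miR-145 called lower and a median of -0.83, and miR-214 (-0.43), miR-199a-5p (-0.50), miR-199a-3p (-0.08) and miR-22 (-0.83) not called. The p53-linked list had 5 of 7 on no array and none on all 4.

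In the miR-99/100 and miR-125 families, 4 of 5 members were on all 4 arrays and 2 were called lower, miR-99b and miR-125b. miR-100 had -1.11 and miR-125a-5p -1.28, so that all 4 lay below the median of the 108. With the replicate block miR-100 (limma adjusted p = 0.0233) and miR-125a-5p (0.0444) were called lower too. Of the oncogenic trio, miR-221 was called lower, miR-21 was not called and miR-222 lacked 1 day 7 array. The list of names that match ribosomal, transfer, vault or other RNA, some withdrawn and others, such as miR-1246 and miR-1275, still current, had 11 of 15 on all 4 arrays, with 4 higher calls (miR-923, miR-1308, miR-1246 and miR-1275), 1 lower call (miR-1826) and 6 not called, and a median of -0.70. The lower call, miR-1826, did not keep its direction with no scaling (0.21), and miR-1274b (-1.12), from transfer RNA, was not called. With the replicate block miR-1274b was called lower (limma adjusted p = 0.022). These medians are descriptions, and in the signal with 75th percentile scaling they were -0.47 for let-7, -0.25 for the miR-17 list and -0.77 for the miR-99/100 and miR-125 families, beside -0.30 for all. In the same signal the median of the miR-26 family was 0.16, miR-29a had 0.05 and the trio 0.04, and under cyclic loess the miR-30 family had a median of 0.34, so that these directions turned with the scaling.

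Members cut from 1 transcript did not always keep together in value. On chromosome 19, the miR-99b, let-7e and miR-125a hairpins lie within chr19:51692618-51693327, in the span of SPACA6. miR-99b had -1.37, let-7e -0.89 and miR-125a-5p -1.28, while miR-125a-3p had 2.44 and 1.39 at day 0 and 5.09 and 5.79 at day 7, a difference of 3.53 ± 1.5 that was not called (limma adjusted p = 0.0961). miR-125a-3p was called higher in the spots (0.49, limma adjusted p = 0.00969). It was also called higher in the total gene signal, scaled by the 75th percentile (4.36, 0.0276) or unscaled (4.67, 0.0275). It was not called with the table centred on its median (4.02, 0.0841) or shifted by its 75th percentile (3.30, 0.108). Under cyclic loess both arms were negative, with -0.13 for miR-125a-3p and -2.03 for miR-125a-5p. The scanner signal of miR-125a-3p was 1.92 and 2.42 units at day 0 and 26.4 and 114 units at day 7. In the miR-17 cluster of chromosome 13, within chr13:91350618-91351382, miR-92a had -2.07, miR-19a -1.32, miR-17 -0.79, miR-20a -0.64 and miR-19b -0.43. The copies of miR-92a and miR-19b on chromosome X yield the same mature miRNAs and cannot be separated.

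On chromosome X, miR-532-3p (-2.45, limma adjusted p = 0.0621) and miR-362-5p (-1.17) lie within chrX:50003204-50009756 together with miR-501-5p, detected at day 7 and not at day 0, and miR-188-5p, which had 6.85 and 7.05 at day 7. On chromosome 14, miR-370, miR-654-5p and miR-134 were absent at day 0 and present at day 7, and miR-494 was called higher. miR-342-3p, also on chromosome 14 but within the span of EVL, had -1.19 and miR-1260, within that of NGB, had -1.06, and neither was called. Guide arms lay closer together in other clusters, namely miR-25, miR-93 and miR-106b within chr7:100093571-100094063, with differences from -0.97 to -0.74, and miR-23b, miR-27b and miR-24 of chromosome 9, with differences from -1.0 to -0.65. The passenger arm miR-23b* had 2.39 and 0.84 at day 0 and was at the floor and at -3.09 at day 7.

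RefSeq gave a mature sequence for 89 of the 108 miRNAs, 82.4%. A run of at least 4 G (GGGG) was present in 4 of 8 higher calls (miR-1225-5p, miR-1202, miR-1268 and miR-1275), in 1 of 18 lower calls and in 3 of 63 not called, beside 278 of 2362 human mature sequences in the table, 11.8%. The median G and C content was 58.0% for the higher calls, 53.5% for the lower calls and 47.8% for those not called. Across the 89 miRNAs, G and C content and the difference between days had a Pearson correlation of 0.133 and a Spearman correlation of -0.170. The Pearson correlation was 0.291 in the spots, 0.198 in the total gene signal scaled by the 75th percentile and -0.0488 under cyclic loess. Of the 17 miRNAs with at least 60% G and C, 4 were called higher and 6 lower, and their median difference was -1.37. Of the 15 miRNAs on both day 7 arrays and 1 day 0 array, 13 had a sequence, with a median of 61.9%. For the 32 miRNAs seen only at day 7, 24 had a sequence, 75%, under the 80% required here, and no comparison was made.

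The labelled cell type was checked against markers. None of 6 epithelial, 6 blood cell, 2 endothelial, 4 muscle, 8 pluripotent and 1 liver miRNAs was detected on any of the 4 arrays. Other arms of listed hairpins, which the lists left out, were detected on both day 7 arrays. They were miR-371-5p (3.29 and 3.90) and miR-150* (4.52 and 4.63). Of 4 neural miRNAs only miR-128 was detected, at 2.85 and 2.91 at day 0 and -1.61 on 1 day 7 array. Of 6 mesenchymal miRNAs, miR-145, miR-199a-5p, miR-199a-3p and miR-214 were on all 4 arrays, and miR-143 and miR-199b-5p were at the floor on all 4.

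The same step was read in Sa/CD99, whose arrays are not shared with Saos-2. There, day 0 lay on the slide of the Saos-2 arrays and day 7 on the other slide, so that day and slide cannot be told apart. Of the 101 miRNAs detected on all 8 arrays, the median difference was -0.97 in Saos-2 and -0.82 in Sa/CD99. The sign was the same for 100 of the 101 miRNAs, the exception being miR-26a, with -0.67 and 0.27. Of the 31 Saos-2 calls, 29 were detected on all 4 Sa/CD99 arrays. The others were miR-30a*, at the floor on 1 Sa/CD99 day 7 array, and miR-551b, at the floor on all 4. In Sa/CD99, 21 of the 31 were called too, miR-30a* among them with a value at the floor. Beside these, 24 of the 101 miRNAs detected on all 8 arrays were called in Sa/CD99. miR-923 had 5.87 in Saos-2 and 5.68 in Sa/CD99, miR-1202 had 4.20 and 3.95, and miR-210 had -3.15 and -3.34. The widest gap among the rises was that of miR-1305, with 2.14 and 0.76.

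The test of the difference between Saos-2 and Sa/CD99 in this step gave no call among the 101 miRNAs by limma, with 1 at an unadjusted p of 0.05 and a lowest adjusted p of 0.536, while 0.457% of all 219 tested were called. The single call, miR-378, was at the floor on both Sa/CD99 day 0 arrays. Without Saos-2 day 7 replicate 1, miR-129* (-6.22 against -4.26) and miR-532-3p (-4.09 against -1.53) were called. A value that misses the threshold does not show that the cells changed alike.

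**Figure D5:**
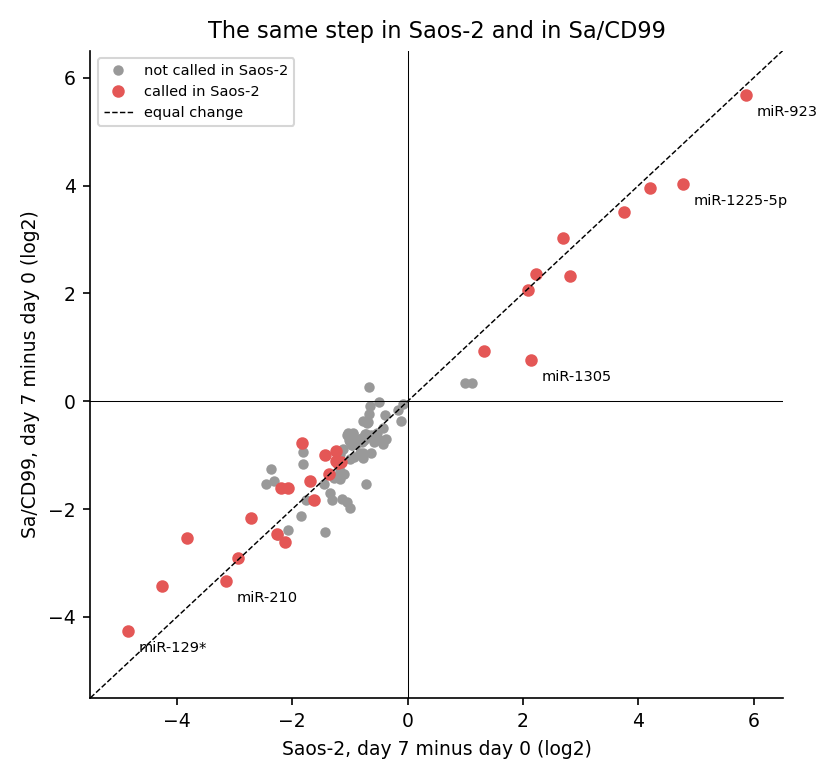
Difference between day 7 and day 0 (log2) in Sa/CD99 against that in Saos-2 for the miRNAs detected on all 4 arrays of each, with those called in Saos-2 in red and the dashed line of equal change. The points lie along the line from miR-129* (-4.84 and -4.26) to miR-923 (5.87 and 5.68), and miR-1305 lies below it.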

How the data were processed

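Total RNA was labelled with Cy3 and hybridised by the authors to Agilent human miRNA arrays, each with 15739 spots. The scanner intensity values deposited by the authors came from Feature Extraction 10.7.3.1, per the file headers, with no scaling between arrays. A second file that the authors deposited holds normalized log2 values, for which the submitters' processing notes name RMA. Of its 244 distinct detected values, 93.4% occurred in more than 1 column, which a quantile normalization gives. The use of summed probes and the floor are not described in the sources used here.

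The 219 miRNAs above the floor on both arrays of some group were tested. All 12 arrays entered 1 model with 6 groups in limma 3.58.1 (R 4.3.3), which left 6 residual degrees of freedom. The contrast was Saos-2 day 7 minus day 0, and p-values were adjusted by Benjamini-Hochberg over all 219 at 0.05. Fitted differences are given for miRNAs detected on all 4 arrays, and otherwise said to rest on floor values. The number of arrays limits the precision.

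Named were the 10 largest rises and falls among calls whose groups do not overlap, up to 8 miRNAs present on 1 day only, the 5 of highest level, up to 5 of each list and any called in the comparison with Sa/CD99; other names were chosen after their values were seen. Members and lists were chosen with earlier results of these data known. Array names were matched to RefSeq names by hand. The sequences of some miRNAs are not reported here. Alternatives changed the labels, values, scaling, floor, filter, arrays, replicate block, thresholds and variance model. Gene expression arrays were not used here.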

Additional observations from a re-analysis of the deposited data

Results flagged for a closer look

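miR-378 was the only miRNA whose change from day 0 to day 7 differed between Saos-2 and Sa/CD99 by limma, with a difference of the 2 changes of -6.27 on the log2 scale (adjusted p = 0.000132 over the 219 tested). In Saos-2 it was detected on all 4 arrays, at 3.24 and 3.29 at day 0 and at 2.81 and 3.40 at day 7. In Sa/CD99 it was at the floor on both day 0 arrays and had a mean of 3.09 at day 7, so that the fitted change there, 6.11, was taken against the floor and its size has no meaning as a fold. As the test includes values at the floor, it was not among the 101 miRNAs detected on all 8 arrays.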

How the results depend on the processing

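The 31 calls, 10 higher and 21 lower, depended on labels and scaling. With scanner arrays named as they were filed there were 0 higher and 0 lower among the miRNAs on all 4 arrays. Cyclic loess gave 4, with 0 higher (2 at an unadjusted p under 0.05) and 4 lower. The total gene signal scaled by the 75th percentile gave 19, with 8 lower, the table centred on the median 11 lower, and the spots 36 lower. With no filter there were 57 calls, 46 lower, and with only the 4 Saos-2 arrays there were 12, 6 higher and 6 lower, with fewer arrays in the fit. In settings chosen after seeing the data there were 14 with no scaling of the signal (3 lower), 18 with undetected signals missing (7 lower) and 11 lower with the table centred and floor values missing. Same-numbered Saos-2 arrays deviated together over 108 miRNAs (the correlation was 0.423 for day 0 with day 7, and with day 14 it was 0.584 for day 0 and 0.562 for day 7), and the signal of 1 control probe was 103107 to 107506 units on the replicate 2 arrays of the 3 days and 31516 to 46229 units on replicate 1. As days 0 and 7 hold 2 pairs and no source names what a number shares, the replicate block was kept out of the main test. It made 45 calls, 10 higher and 35 lower. Of the named miRNAs, miR-30a* (adjusted p = 0.0776) and miR-98 (0.0525) were no longer called by limma with the block, and miR-100 (0.0233), miR-125a-5p (0.0444), miR-1274b (0.022) and miR-27a (0.0451) were called lower. Leaving out 1 array at a time, where the lone array left in a group is assumed to vary like the other groups, gave 15 to 53 calls, 6 to 11 higher and 9 to 42 lower, and 0 to 2 miRNAs that differed between Saos-2 and Sa/CD99. All other alternatives kept these counts within 1.5 times.

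By the filed labels these named calls changed sign: miR-1202 (-0.85), miR-1225-5p (-0.78), miR-1246 (-0.31), miR-1268 (-0.64), miR-1275 (-0.82), miR-1290 (-0.42), miR-1305 (-0.67), miR-1308 (-0.98), miR-494 (-0.44), miR-923 (-0.48), miR-125b (0.32), miR-129* (2.13), miR-145 (0.06), miR-29b-1* (1.20), miR-30a* (4.47), miR-744 (0.34), miR-92a (0.12) and miR-99b (0.12). Of these only miR-30a* passed the threshold (limma adjusted p = 0.00255), against the floor on both arrays then taken as day 0, while the lowest adjusted p of the others was 0.996. Under cyclic loess these did: miR-1225-5p (-0.09), miR-1246 (-0.07), miR-1275 (-0.08), miR-1308 (-0.15), miR-494 (-0.09), miR-923 (-0.08) and miR-551b (0.21). With no scaling these did: miR-1826 (0.21), miR-551b (0.07) and miR-98 (0.05). The cause was not tested.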

Other observations

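The miRNAs that were seen at day 7 and not at day 0 in Saos-2 were mostly present a week later and in the clones. Of the 32, 31 were at the floor on both Sa/CD99 day 0 arrays and 28 were detected on both Sa/CD99 day 7 arrays, with 27 meeting both. miR-630 had 8.35 and 8.46 at day 7 in Sa/CD99 and 8.80 and 8.19 at day 14 in Saos-2. miR-139-3p, with 3.59 and 4.81 at day 7 in Saos-2, had -0.63 and 0.45 there at day 14. miR-34a was the exception at day 0: in Sa/CD99 it had 3.27 and 3.45 at day 0 and 3.49 and 3.14 at day 7, while in Saos-2 it was at the floor at day 0 and had 0.81 and 2.79 at day 14.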
